A study of Mus musculus with 6 samples.

Results

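The interleukin 1 receptor family was taken as the genes Il1r1, Il1r2, Il1rap, Il1rl1, Il18r1 and Il18rap, and every probe set that the array's annotation assigned to one of them alone was read. This gave 11 probe sets for 5 of the 6 genes, out of 34945 probe sets with a single gene symbol for 18193 genes. No probe set was matched to Il1rl1, the interleukin 33 receptor, which was not analysed here. The genes were chosen by their log2 intensities in the 3 sorted groups measured here, so their levels are given as a description and without a p-value.

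The arrays measured RNA of LSK cells, the lineage-negative, Sca1-positive and Kit-positive cells of mouse bone marrow that include blood stem cells and early multipotent progenitors. The bone marrow came from adult mice of 10 to 14 weeks, and strain, genotype and treatment are not given in the sources used here. Staining for CD34 and Flt3 separated them into CD34+Flt3hi, CD34+Flt3- and CD34-Flt3- cells, with 2 arrays for each of the 3 groups, in a series made to look for expression changes between LSK subpopulations that differ in function. RNA was amplified in 2 rounds before hybridisation. Whether the paired arrays of a population stem from different animals or different sorts is not stated, so SDs, SEs and p-values describe the scatter of these arrays alone and may be technical.

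Receptors of this family carry immunoglobulin-like domains outside the cell and, in the signalling members, a Toll/interleukin 1 receptor domain inside it. Interleukin 1 binds the receptor encoded by Il1r1, which then pairs with the accessory chain encoded by Il1rap. Interleukin 18 binds the chain encoded by Il18r1 and is joined by the chain encoded by Il18rap. Both complexes signal through the adaptor Myd88 and Irak kinases to NF-kappaB and MAP kinases, while the product of Il1r2 binds interleukin 1 without the inner signalling domain and acts as a decoy. In bone marrow, interleukin 1 is known to act on stem and progenitor cells and to favour myeloid output.

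Values are log2 of the deposited intensities, and a gene with several probe sets was read first from the one with the highest mean. Background was set at a log2 of 4.50, a level that 90% of the values of 27 unspiked bacterial controls did not exceed, and 26.7% of all genes had a mean below it. Array medians ran from 29.7 to 31.4 on the linear scale. Pearson's r across genes, which are not independent replicates, within each pair of replicates was 0.990 for CD34+Flt3hi, 0.981 for CD34+Flt3- and 0.969 for CD34-Flt3- cells. RNA of the sort antigens followed the gates in part. Flt3 read 12.01 and 11.75 in CD34+Flt3hi, 8.84 and 9.81 in CD34+Flt3-, and 7.65 and 9.16 in CD34-Flt3- cells. Cd34 read 11.35 and 11.34 in CD34+Flt3hi, 10.51 and 10.68 in CD34+Flt3-, and 8.78 and 9.45 in CD34-Flt3- cells. Kit lay between 8.82 and 10.99 on all arrays, and the Sca1 gene Ly6a was not analysed here, since no probe set names it alone. Each sample title also holds a code whose meaning is not stated, lettered A to C below. Code A is shared by replicate 2 of every group, code B by replicate 1 of the CD34+Flt3hi and CD34+Flt3- groups, and code C belongs to replicate 1 of the CD34-Flt3- group alone.

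Il1r1, the signalling receptor of interleukin 1, was the member with the widest span between groups. Its probe set 1448950_at (Entrez gene 16177) read 10.38 and 10.34 in CD34+Flt3hi cells, 8.0 and 7.92 in CD34+Flt3- cells and 6.96 and 7.33 in CD34-Flt3- cells. All 3 groups stood apart, with CD34+Flt3hi cells highest and CD34-Flt3- cells lowest, and all 6 arrays were above background. The mean was 10.36 ± 0.03 (SD, n = 2) in CD34+Flt3hi cells, against 7.96 ± 0.06 in CD34+Flt3- cells, then 7.14 ± 0.26 in CD34-Flt3- cells. CD34+Flt3hi cells were 9.28-fold above CD34-Flt3- cells, a log2 difference of 3.21 ± 0.25 (SE of the limma fit), and the lowest CD34+Flt3hi array exceeded the highest CD34-Flt3- array by 3.01. Against CD34+Flt3- cells the difference was 2.40 ± 0.25, or 5.28-fold, with 2.42 within code A and 2.38 within code B. CD34+Flt3- cells were 1.76-fold above CD34-Flt3- cells, by 0.82 ± 0.25 on the log2 scale and by 0.59 within code A. Genes were also ranked by signed log2 difference from the largest rise downwards, so that falls of any size came last. Il1r1 stood at rank 20 of 18193 genes between CD34+Flt3hi and CD34+Flt3- cells. Its rank was 29 between CD34+Flt3hi and CD34-Flt3- cells and 477 between CD34+Flt3- and CD34-Flt3- cells. In sorted populations, fewer cells carrying a transcript and less of it per cell cannot be told apart.

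The other Il1r1 probe set, 1459777_at, gave no second reading of this pattern. It lay between 3.13 and 3.74 on the 6 arrays, below background on all of them, and its difference between CD34+Flt3hi and CD34-Flt3- cells was -0.03 ± 0.23. A probe set at background measures neither a difference nor its absence. The level of Il1r1 therefore rests on a single probe set, and the mean of both probe sets narrows its span by construction, to a difference of 1.59 between CD34+Flt3hi and CD34-Flt3- cells.

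Il18rap, the accessory chain of the interleukin 18 receptor, also read highest in CD34+Flt3hi cells. Its brighter probe set 1456545_at (Entrez gene 16174) read 8.80 and 8.87 in CD34+Flt3hi cells, 6.65 and 7.50 in CD34+Flt3- cells and 6.74 and 6.77 in CD34-Flt3- cells. CD34+Flt3hi arrays stood above all others, while the CD34+Flt3- arrays lay on both sides of the CD34-Flt3- arrays. The mean was 8.84 ± 0.05 (SD, n = 2) in CD34+Flt3hi cells, 7.07 ± 0.61 in CD34+Flt3- cells, then 6.75 ± 0.02 in CD34-Flt3- cells. The difference between CD34+Flt3hi and CD34-Flt3- cells was 2.08 ± 0.31 (SE), or 4.24-fold. That between CD34+Flt3hi and CD34+Flt3- cells was 1.76 ± 0.31, or 3.40-fold, and differed between the codes, with 1.37 in code A and 2.16 in code B. Between CD34+Flt3- and CD34-Flt3- cells the difference was 0.32 ± 0.31, about the size of its error. It was -0.11 without CD34+Flt3- replicate 2 and 0.75 without CD34+Flt3- replicate 1.

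A further Il18rap probe set was above background on 5 of the 6 arrays. Probe set 1421291_at read 6.10 and 5.43 in CD34+Flt3hi cells, 4.86 and 5.35 in CD34+Flt3- cells and 4.39 and 4.85 in CD34-Flt3- cells. The groups fell in this order without overlap but touched, since CD34+Flt3- replicate 1 and CD34-Flt3- replicate 2 were nearly equal and CD34+Flt3hi replicate 2 lay just above CD34+Flt3- replicate 2. Its differences were smaller than those of the brighter probe set, with 1.15 ± 0.33 between CD34+Flt3hi and CD34-Flt3- cells, 0.66 ± 0.33 between CD34+Flt3hi and CD34+Flt3- cells and 0.49 ± 0.33 between CD34+Flt3- and CD34-Flt3- cells. The lowest CD34-Flt3- array, at 4.39, was just below the background of 4.50 for this probe set. Why the differences of the 2 probe sets were unlike in size was not tested.

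**Figure D1:**
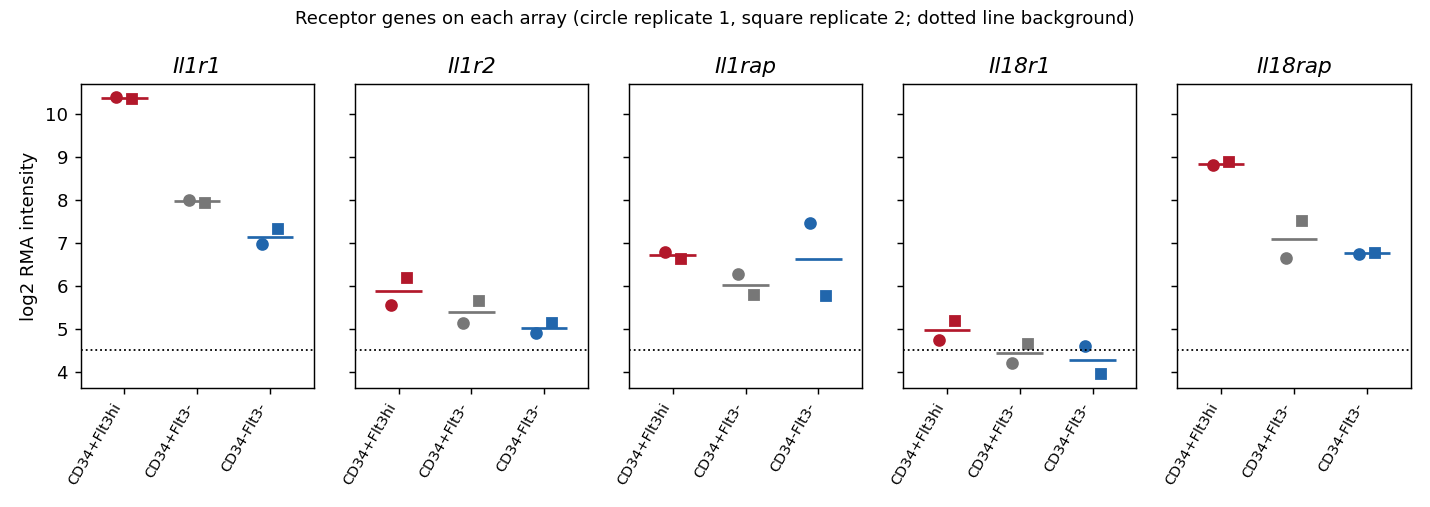
Log2 RMA intensity of the 5 receptor genes (vertical axis) on each of the 6 arrays, by sorted group, with a circle for replicate 1, a square for replicate 2, a bar for the group mean and a dotted line for background at 4.50. Il1r1 and Il18rap stand highest on both CD34+Flt3hi arrays, and Il18r1 straddles the background line. Panels show different probe sets, whose heights cannot be compared with each other.

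Because Il1r1 and Il18rap were both highest in CD34+Flt3hi cells, the starts of these genes are shown, from 250 bases before to 50 after each start that RefSeq gives (GRCm38.p6, plus strand). The first Il1r1 start lies at chr1:40224830-40225129, the next at chr1:40266336-40266635 and the Il18rap start at chr1:40515112-40515411. Capitals mark matches to 5 motifs searched on both strands, AGGAAGT for ETS factors, TGTGGT for RUNX factors, AGATAA for GATA factors, the E-box CAGCTG and, for NF-kappaB, GGGA followed by any base and TTTCC.
Il1r1 first start: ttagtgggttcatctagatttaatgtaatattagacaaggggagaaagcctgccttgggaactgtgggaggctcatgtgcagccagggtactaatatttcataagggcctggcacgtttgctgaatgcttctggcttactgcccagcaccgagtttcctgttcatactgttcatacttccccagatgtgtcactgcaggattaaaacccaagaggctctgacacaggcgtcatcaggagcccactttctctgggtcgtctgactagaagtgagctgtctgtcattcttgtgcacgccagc
Il1r1 next start: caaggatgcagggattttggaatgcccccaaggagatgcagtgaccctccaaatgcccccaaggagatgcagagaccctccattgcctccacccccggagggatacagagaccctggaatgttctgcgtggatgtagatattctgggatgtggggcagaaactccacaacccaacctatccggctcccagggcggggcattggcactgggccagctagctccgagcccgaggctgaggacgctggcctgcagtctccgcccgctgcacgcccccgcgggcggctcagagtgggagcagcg
Il18rap start: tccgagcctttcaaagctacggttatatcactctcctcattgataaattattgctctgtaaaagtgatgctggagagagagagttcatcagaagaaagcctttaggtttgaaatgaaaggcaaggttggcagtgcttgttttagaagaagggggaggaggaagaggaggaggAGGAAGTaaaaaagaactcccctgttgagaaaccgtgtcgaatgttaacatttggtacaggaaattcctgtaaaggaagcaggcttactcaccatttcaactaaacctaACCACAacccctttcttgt

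Neither Il1r1 window held any of the 5 motifs. The Il18rap window held AGGAAGT from 78 to 72 bases before the start on the plus strand, a motif found in 9.35% of the 32851 RefSeq windows of this length, and TGTGGT on the minus strand, printed as ACCACA, which 16.8% of the windows held. The shares were 11.2% for AGATAA, 16.3% for CAGCTG and 0.411% for the NF-kappaB motif. The later Il1r1 window had 63.3% G and C bases and 14 CG pairs, the earlier one 49.3% and 5, and the Il18rap window 42.3% and 4, with a median of 52.7% G and C over all windows. A match is a string of letters and no evidence of binding, and the arrays do not say which start was used.

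Il18r1, the chain that binds interleukin 18, was near background. Its single probe set 1421628_at (Entrez gene 16182) read 4.74 and 5.17 in CD34+Flt3hi cells, 4.20 and 4.64 in CD34+Flt3- cells and 4.60 and 3.93 in CD34-Flt3- cells. Only the CD34+Flt3hi mean, 4.96 ± 0.30 (SD, n = 2), exceeded background, and the CD34+Flt3hi arrays lay above the others by as little as 0.10. With values below background set to it in the dimmer group, the Il18r1 mean was at least 1.32-fold higher in CD34+Flt3hi cells than in CD34-Flt3- cells. Against CD34+Flt3- cells it was at least 1.31-fold higher. These bounds allow for background alone and not for scatter, since the log2 differences of 0.69 and 0.54 each had an SE of 0.29. Between CD34+Flt3- and CD34-Flt3- cells both means were below background and no fold is given. The dimness of this probe set limits what it can show, and its level cannot be set against that of Il18rap.

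Il1r2, the decoy receptor, showed a smaller step in the same direction. Its single probe set 1419532_at (Entrez gene 16178) read 5.55 and 6.18 in CD34+Flt3hi cells, 5.12 and 5.64 in CD34+Flt3- cells and 4.89 and 5.13 in CD34-Flt3- cells. Neighbouring groups overlapped, while both CD34+Flt3hi arrays stood above both CD34-Flt3- arrays. The difference between CD34+Flt3hi and CD34-Flt3- cells was 0.86 ± 0.31 (SE), or 1.81-fold, and 1.05 within code A. The differences of 0.49 ± 0.31 between CD34+Flt3hi and CD34+Flt3- cells and 0.37 ± 0.31 between CD34+Flt3- and CD34-Flt3- cells came from arrays that overlapped between the groups. Leaving out single arrays moved the first of these 3 differences to between 0.54 (without CD34+Flt3hi replicate 2) and 1.17 (without CD34+Flt3hi replicate 1), the second to between 0.17 and 0.80 (without the same arrays) and the third to between 0.11 (without CD34+Flt3- replicate 2) and 0.63 (without CD34+Flt3- replicate 1). In every group replicate 2, the array of code A, read higher than replicate 1, by more in the 2 CD34+ groups.

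Il1rap, the accessory chain shared by the receptors for interleukin 1 and interleukin 33, did not follow Il1r1. Its brightest probe set 1421844_at (Entrez gene 16180) read 6.78 and 6.63 in CD34+Flt3hi cells, 6.26 and 5.78 in CD34+Flt3- cells and 7.46 and 5.76 in CD34-Flt3- cells. The CD34-Flt3- replicates were the highest and the lowest of all 6 arrays, so that neither other group could be placed against them. The difference between CD34+Flt3hi and CD34-Flt3- cells was 0.10 ± 0.47 (SE), and it was 0.94 without CD34-Flt3- replicate 1 and -0.75 without CD34-Flt3- replicate 2. That between CD34+Flt3- and CD34-Flt3- cells was -0.59 ± 0.47, and 0.25 and -1.44 without the same arrays. CD34+Flt3hi exceeded CD34+Flt3- cells by 0.69 ± 0.47, with 0.85 in code A and 0.52 in code B.

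The other 4 Il1rap probe sets carried little signal. Probe set 1421843_at read 4.91 and 4.62 in CD34+Flt3hi cells, 4.38 and 4.59 in CD34+Flt3- cells and 4.57 and 4.69 in CD34-Flt3- cells. It was below background on 1 array and close to it on the others, and it differed by 0.14 ± 0.24 between CD34+Flt3hi and CD34-Flt3- cells. Its group means fell in the same order as those of the brightest probe set, with differences of 0.28 ± 0.24 between CD34+Flt3hi and CD34+Flt3- cells and -0.14 ± 0.24 between CD34+Flt3- and CD34-Flt3- cells. Probe sets 1449585_at and 1439697_at were below background on all 6 arrays. Probe set 1442614_at was above it on 1 array, CD34-Flt3- replicate 2 at 5.34, which was the array with the lowest reading of the brightest probe set. The 3 dimmer probe sets did not all follow that order.

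**Figure D2:**
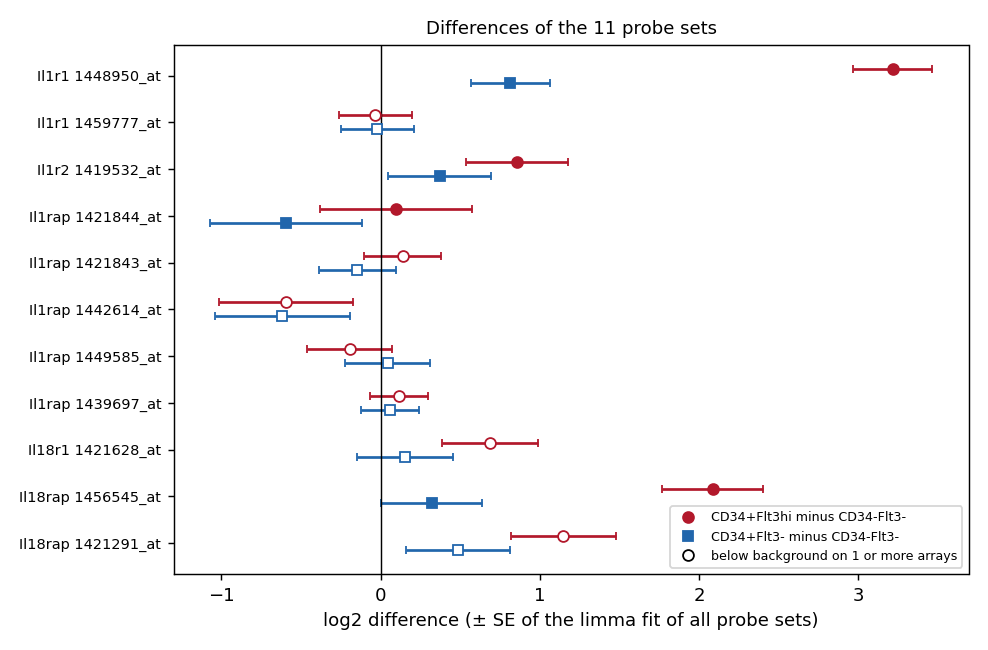
Log2 difference from CD34-Flt3- cells (horizontal axis, ± SE of a limma fit of all probe sets) of each of the 11 probe sets, as red circles for CD34+Flt3hi and blue squares for CD34+Flt3- cells. Filled symbols mark the 4 probe sets above background on all 6 arrays. The brighter Il1r1 probe set lies at 3.21 for CD34+Flt3hi cells while the one below background lies at -0.03, and both Il18rap probe sets lie above 0.

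Counted by the limma fit of all genes, 2 of the 5 measured members, Il1r1 and Il18rap, were called higher between CD34+Flt3hi and CD34+Flt3- cells, where 0.385% of all genes were called higher and 0.225% lower. The same 2 members were called higher between CD34+Flt3hi and CD34-Flt3- cells, where the shares of all genes were 2.62% higher and 3.5% lower. Between CD34+Flt3- and CD34-Flt3- cells limma called 0 of the 5, with 2.1% of all genes called in either direction (0.77% higher and 1.33% lower). These contrasts were those in which the members had been picked, so nothing is read from the counts. The comparisons share arrays and are not independent of each other. The median log2 difference over the 5 members was 0.86 between CD34+Flt3hi and CD34-Flt3- cells, against -0.07 over all genes. It was 0.69 against 0.03 between CD34+Flt3hi and CD34+Flt3- cells. These medians rest on the same choice of members, and nothing is read from them either.

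Among the 6 arrays Il18rap was the member closest to Il1r1, with a Pearson's r of 0.953, followed by Il1r2 at 0.805 and Il18r1 at 0.698, while Il1rap had an r of 0.142. All points come from the same 6 arrays, and the values are a description. Among 1650 named genes with a mean above background and group means spanning at least a log2 of 1, those most like Il1r1 were Btla, an inhibitory receptor of lymphocytes (r of 0.994), Dhrs3, a retinaldehyde reductase (0.993), H2-Ob, a chain of the class II-like molecule that tunes peptide loading (0.988), and P2ry14, a receptor for UDP-sugars (0.985). Their log2 differences between CD34+Flt3hi and CD34-Flt3- cells were 3.42 for Btla, 2.37 for Dhrs3, 2.85 for H2-Ob and 2.63 for P2ry14. Those most like Il18rap were Cds1, a CDP-diacylglycerol synthase (r of 0.998 and a difference of 1.72), Ncf1, a subunit of the phagocyte oxidase (0.994 and 3.64), Wfdc18, which encodes a secreted whey acidic protein-type factor (0.993 and 2.23), and Camk1d, a calcium-dependent kinase (0.993 and 2.29).

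In RefSeq, 6 protein-coding genes follow each other on mouse chromosome 1 from Il1r2 through Il1r1, Il1rl2, Il1rl1 and Il18r1 to Il18rap, whereas Il1rap is on chromosome 16. Il1rl2, the interleukin 36 receptor gene that lies between Il1r1 and Il18r1, read 4.60 and 4.85 in CD34+Flt3hi cells, 5.10 and 5.06 in CD34+Flt3- cells and 4.89 and 5.03 in CD34-Flt3- cells. It differed by -0.23 ± 0.24 (SE; limma adjusted p = 0.684) between CD34+Flt3hi and CD34-Flt3- cells. Of 11 other genes of the region, from Npas2 to Map4k4 on one side and Slc9a4 to Tmem182 on the other, limma called 0 in any of the 3 comparisons when each was read from its brightest probe set. Among these 11 and Il1rl2, 3 had an unadjusted limma p under 0.05 between CD34+Flt3hi and CD34-Flt3- cells, beside 3336 of all 18193 genes. There were 2, beside 1229, between CD34+Flt3hi and CD34+Flt3- cells and 3, beside 3082, between CD34+Flt3- and CD34-Flt3- cells. Over all genes limma called 6.11%, 0.61% and 2.1% in these comparisons. Map4k4, a kinase gene next to Il1r2 in this list and picked out here after its values were seen, read 8.76 and 9.0 in CD34+Flt3hi cells, 7.78 and 7.66 in CD34+Flt3- cells and 7.86 and 8.34 in CD34-Flt3- cells. Its difference of 1.16 ± 0.27 between CD34+Flt3hi and CD34+Flt3- cells did not pass (limma adjusted p = 0.133). In a limma fit of all probe sets, 1 of its 4 other probe sets passed between CD34+Flt3hi and CD34-Flt3- cells (1.32, adjusted p = 0.0472), where the brightest gave 0.78.

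**Figure D3:**
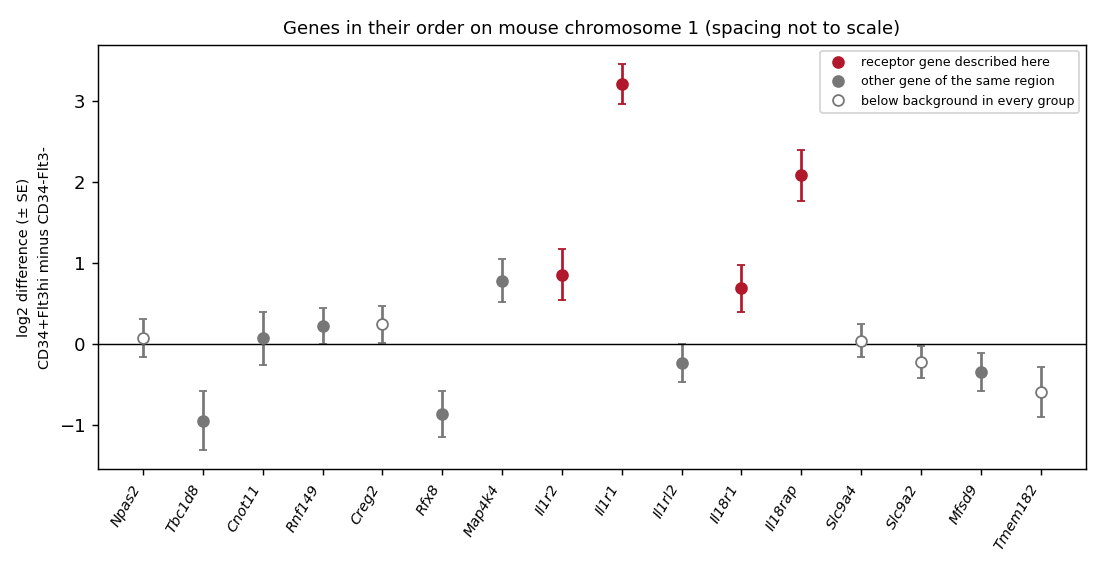
Log2 difference between CD34+Flt3hi and CD34-Flt3- cells (vertical axis, ± SE of the limma fit) for the receptor genes (red) and other genes (grey) in their order along mouse chromosome 1. Open symbols were below background in every group. Il1r1 at 3.21 and Il18rap at 2.08 stand above all genes around them, and Il1rl2 between them lies at -0.23.

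Further genes of interleukin 1 and interleukin 18 signalling were read from lists of ligands and soluble inhibitors, ligand processing, other receptors of the family, adaptors and kinases, and the NF-kappaB and MAP kinase arms. Of 67 listed genes 57 were measured. By limma over all genes, 2 were higher and 1 was lower in CD34+Flt3hi cells than in CD34-Flt3- cells, which is 5.26% of the list, beside 6.11% called in either direction among all genes. Between CD34+Flt3hi and CD34+Flt3- cells limma called 0 of the 57, beside 0.61% of all genes. It also called 0 between CD34+Flt3- and CD34-Flt3- cells, beside 2.1% of all genes. At an unadjusted limma p under 0.05 there were 11 of the 57 between CD34+Flt3hi and CD34-Flt3- cells, beside 3336 of all 18193 genes. There were 6, beside 1229, between CD34+Flt3hi and CD34+Flt3- cells and 14, beside 3082, between CD34+Flt3- and CD34-Flt3- cells. The median log2 difference of the list was -0.15, 0.10 and -0.26 for these 3 comparisons, against -0.07, 0.03 and -0.10 over all genes.

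Irak3, which encodes a kinase-like inhibitor of the Irak cascade, was lower in CD34+Flt3hi cells than in CD34-Flt3- cells. It read 5.53 and 6.32 in CD34+Flt3hi cells, 7.93 and 6.89 in CD34+Flt3- cells and 8.59 and 7.90 in CD34-Flt3- cells. The CD34+Flt3hi arrays were lowest and did not overlap with either other group, while CD34+Flt3- replicate 1 exceeded CD34-Flt3- replicate 2. The fall between CD34+Flt3hi and CD34-Flt3- cells was 4.99-fold (log2 -2.32 ± 0.42, SE; limma adjusted p = 0.0103; -1.58 in code A). Its adjusted p was 0.126 without CD34+Flt3hi replicate 1, and its other probe set differed by -0.78. In a limma fit of all probe sets, that other probe set was not called (adjusted p = 0.296). Irak3 and Il1r1 thus differed in opposite directions between these cells.

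Irak1bp1, which encodes a protein that binds Irak1, read 6.25 and 6.47 in CD34+Flt3hi cells, 5.37 and 5.46 in CD34+Flt3- cells and 5.33 and 5.35 in CD34-Flt3- cells. It was 2.03-fold higher in CD34+Flt3hi cells than in CD34-Flt3- cells (log2 1.02 ± 0.26, limma adjusted p = 0.0455). Nfkbie, an inhibitor of NF-kappaB that is itself a target of the pathway, read 7.80 and 8.11 in CD34+Flt3hi cells, 7.03 and 6.90 in CD34+Flt3- cells and 7.08 and 6.48 in CD34-Flt3- cells. It was 2.25-fold higher in CD34+Flt3hi cells than in CD34-Flt3- cells (log2 1.17 ± 0.30, limma adjusted p = 0.0458). Both calls are close to the threshold and both were lost without any of the CD34+Flt3hi or CD34+Flt3- arrays, at adjusted p of 0.0818 to 0.365 for Irak1bp1 and 0.081 to 0.394 for Nfkbie. Irak1bp1 was also not called without CD34-Flt3- replicate 1 (adjusted p = 0.0571) or replicate 2 (0.0643), nor Nfkbie without CD34-Flt3- replicate 2 (0.113). The other probe sets of these genes differed by 0.59 for Irak1bp1 and 0.33 for Nfkbie. That of Irak1bp1 was not called in a limma fit of all probe sets (adjusted p = 0.176). Nfkbie was read from a probe set whose suffix marks shared matches to other transcripts, and it was not called from its other probe set (limma adjusted p = 0.663).

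Other signalling genes are given as values, chosen after these had been seen. Sigirr, a receptor of the family that dampens interleukin 1 signals, averaged 8.14 ± 0.05 (SD, n = 2) in CD34+Flt3hi cells, 8.06 ± 0.10 in CD34+Flt3- cells, then 8.99 ± 0.12 in CD34-Flt3- cells. Its differences from CD34-Flt3- cells, -0.85 ± 0.24 for CD34+Flt3hi and -0.93 ± 0.24 for CD34+Flt3- cells, did not pass (limma adjusted p = 0.0706 and 0.0849). Pycard, the inflammasome adaptor, averaged 9.89 ± 0.18 in CD34+Flt3hi cells, 9.74 ± 0.06 in CD34+Flt3- cells, then 9.07 ± 0.14 in CD34-Flt3- cells. Its difference of 0.82 between CD34+Flt3hi and CD34-Flt3- cells did not pass either (limma adjusted p = 0.0595). This rise was seen in its brightest probe set alone, since the other Pycard probe sets differed by -0.08 and -0.10 between these cells. Casp4, from the ligand processing list like Pycard, went the other way and did not pass. It averaged 7.61 ± 0.09 in CD34+Flt3hi cells, 8.37 ± 0.18 in CD34+Flt3- cells, then 8.73 ± 0.58 in CD34-Flt3- cells. The difference between CD34+Flt3hi and CD34-Flt3- cells was -1.12 ± 0.31 (limma adjusted p = 0.0665). Myd88, the common adaptor, read between 7.90 and 8.71 on the 6 arrays. Of 7 measured ligand and soluble inhibitor genes, Il1a and Il33 were below background in every group, and limma called 0 in any comparison, with 0 at an unadjusted p under 0.05.

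**Figure D4:**
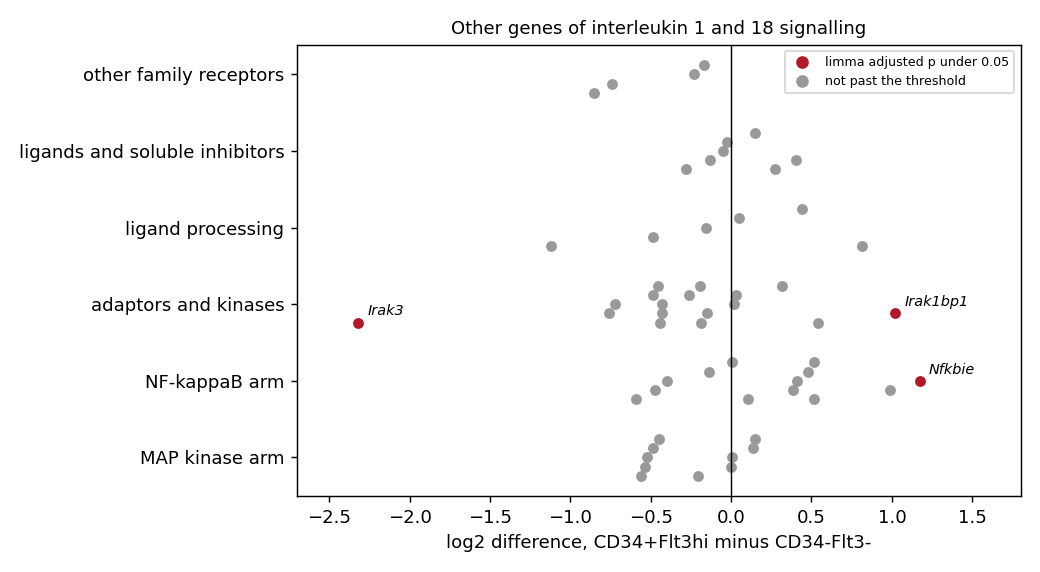
Log2 difference between CD34+Flt3hi and CD34-Flt3- cells (horizontal axis) of 57 further signalling genes, 1 point a gene, by list. Red points passed a limma adjusted p of 0.05, and they are Irak3 at -2.32, Irak1bp1 at 1.02 and Nfkbie at 1.17.

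Markers of mature cells known to carry these receptors were read beside the results. Of 11 measured markers of T cells, NK cells and innate lymphoid cells, which use the interleukin 18 receptor, limma called 0 in any comparison. At an unadjusted limma p under 0.05 there were 2 between CD34+Flt3hi and CD34-Flt3- cells, beside 3336 of all 18193 genes. There were 0, beside 1229, between both CD34+ groups and 1, beside 3082, between CD34+Flt3- and CD34-Flt3- cells. The summed linear intensity of the 11 markers was 301 to 317 in CD34+Flt3hi cells, 297 to 328 in CD34+Flt3- cells, then 278 to 321 in CD34-Flt3- cells. On all 6 arrays 2 of the 11, Cd3e and Cd8a, were above background and 3, Cd3g, Cd2 and Tbx21, were below it. Cd3e, a chain of the T cell receptor complex, averaged 6.52 ± 0.00 (SD, n = 2) in CD34+Flt3hi cells, 6.59 ± 0.16 in CD34+Flt3- cells, then 5.91 ± 0.01 in CD34-Flt3- cells. Its arrays did not overlap between CD34+Flt3hi and CD34-Flt3- cells, but the difference of 0.61 ± 0.26 did not pass (limma adjusted p = 0.249). Cd3d, the other of the 2 markers with a limma unadjusted p under 0.05 here, went the opposite way. It differed by -0.62 ± 0.24 (limma adjusted p = 0.206), also without overlap, and its CD34+Flt3hi mean of 4.14 lay below background. The part of either gene's cells in the level of Il18rap was not tested. Of 12 measured neutrophil and monocyte markers, 1 was called, Csf1r, which encodes the receptor of the macrophage growth factor. Over all genes 0.385% were called higher between CD34+Flt3hi and CD34+Flt3- cells and 2.62% between CD34+Flt3hi and CD34-Flt3- cells. Csf1r read 9.57 and 8.89 in CD34+Flt3hi cells, 6.82 and 7.58 in CD34+Flt3- cells and 5.79 and 6.36 in CD34-Flt3- cells, and it was higher in CD34+Flt3hi cells than in CD34+Flt3- cells (2.03 ± 0.36, limma adjusted p = 0.0447) and than in CD34-Flt3- cells (3.16 ± 0.36, limma adjusted p = 0.00117). Between CD34+Flt3hi and CD34-Flt3- cells 8 of the 12 markers had a positive difference and 4 a negative one. Lyz2 differed by -0.71 ± 0.20 without overlap of arrays (limma adjusted p = 0.0773), and Cd14 by -0.63 ± 0.25 (limma adjusted p = 0.198). The CD34+Flt3hi mean of Cd14, 4.33, lay below background, so its fall is a bound of at least 1.38-fold that leaves out scatter. The summed intensity of this list was 1455 to 1784 in CD34+Flt3hi, 1469 to 1520 in CD34+Flt3- and 1355 to 1449 in CD34-Flt3- cells. This sum joins Csf1r and Lyz2, which differed in opposite directions. On all 6 arrays 6 of the 12, the neutrophil genes Camp, Ngp and Mmp9 and the myeloid genes Lyz2, Ccr2 and Csf1r, were above background, and 2, the neutrophil genes S100a8 and Ltf, were below it. The part of Csf1r-expressing cells in the levels of Il1r1 and Il18rap was not tested.

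Markers of mast cells, basophils and eosinophils were highest in CD34+Flt3- cells as a sum, with 319 to 410 in CD34+Flt3hi cells, 697 to 826 in CD34+Flt3- cells, then 431 to 442 in CD34-Flt3- cells. Cpa3, the brightest of them in both Flt3- groups, weighed most in the sums of these groups. It read 4.91 and 4.17 in CD34+Flt3hi cells, 8.88 and 8.29 in CD34+Flt3- cells and 7.79 and 7.37 in CD34-Flt3- cells. Of 11 measured markers limma called 2, Cpa3 and Ms4a2, lower and 0 higher in CD34+Flt3hi cells than in CD34+Flt3- cells. It called Cpa3 alone lower than in CD34-Flt3- cells (-3.04 ± 0.35, limma adjusted p = 0.00112). Over all genes the shares called lower in these comparisons were 0.225% and 3.5%. Ms4a2 was called higher in CD34+Flt3- than CD34-Flt3- cells (1.65 ± 0.35, limma adjusted p = 0.0485). The list did not move as one, since the basophil protease gene Mcpt8 differed by 1.74 ± 0.59 between CD34+Flt3hi and CD34-Flt3- cells (limma adjusted p = 0.135). On all 6 arrays 4 of the 11, Mcpt8, Tpsb2, Cma1 and Hdc, were above background and 2, Tpsab1 and Prg2, were below it. The part of these cells in the receptor levels was not tested.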

How the data were processed

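The value table holds RMA intensities (robust multi-array average), per the submitters' processing notes, which give no version and do not say which arrays were processed together. The deposited intensities run from 6.50 to 24174 and were taken to be linear, and their log2 was used. Of 45101 probe sets, 34945 named 1 gene, 932 several and 9160 none, 64 being controls. Symbols were updated by gene identifier (99.1% matched). Each gene was read from its probe set with the highest mean, and every member probe set is also given singly. Limma 3.58.1 in R 4.3.3 fitted the group means of all 6 arrays with an intensity trend (3 residual and 6.86 prior degrees of freedom), with two-sided p-values adjusted by Benjamini and Hochberg over 18193 genes and called at 0.05. With only 2 arrays a side, 0.333 is the smallest p of an exact permutation test. The members and lists were chosen with earlier results of these data known. Genes named besides the members were list genes past the threshold, the 4 most correlated with each member spanning at least a log2 of 1, and the sort antigens, with exceptions stated. The fit was tested on simulated data. Alternatives are given in the closing section. Promoter windows came from RefSeq (GRCm38.p6). Precision is limited by the number of arrays. A fold against a group whose mean lay below background is a bound that leaves out scatter, computed with the dim values raised to background.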

Additional observations from a re-analysis of the deposited data

How the results depend on the processing

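The higher readings of Il1r1, Il1r2, Il18r1 and Il18rap in CD34+Flt3hi cells kept their sign under every alternative run, both against CD34-Flt3- and against CD34+Flt3- cells. Il1r1 ranged from 3.03 to 3.40 against CD34-Flt3- cells when single arrays were left out, and Il18rap from 2.05 to 2.12. Against CD34+Flt3- cells these ranges were 2.36 to 2.44 and 1.34 to 2.19. Other settings gave 1.59 to 3.32 for Il1r1 and 1.62 to 2.30 for Il18rap against CD34-Flt3- cells, the lower ends with the mean of all probe sets. Repeated quantile normalization and median centring moved the median of all genes between CD34+Flt3hi and CD34-Flt3- cells from -0.07 to 0.00 and 0.04, and turned no member. Il1rap turned sign against CD34-Flt3- cells in both comparisons, and Il18r1 and Il18rap between CD34+Flt3- and CD34-Flt3- cells, when single arrays were left out. Il1rap also turned to 0.09 (-0.59 in the report) between CD34+Flt3- and CD34-Flt3- cells with the title code as a block, and to -0.09 (0.10) between CD34+Flt3hi and CD34-Flt3- cells with the mean of all probe sets.

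With the title code as a fixed replicate block, limma called 1579 genes (382 without the block) between CD34+Flt3- and CD34-Flt3-, 670 (111) between CD34+Flt3hi and CD34+Flt3- and 2360 (1112) between CD34+Flt3hi and CD34-Flt3- cells, and 5 (0), 6 (0) and 8 (3) of the 68 signalling and neighbouring genes. The block fits CD34-Flt3- replicate 1 exactly, and deviations of the code A arrays correlated by 0.07, 0.06 and 0.31 between groups, so the codes share a label and are not shown to pair samples. The same counts were 199 and 69 genes with the mean of all probe sets for the first and next comparison, and 47 and 300 genes with only the 4 arrays compared. Of the 68 genes, 1 was called between CD34+Flt3- and CD34-Flt3- cells after quantile normalization, and 1 in each comparison with CD34+Flt3hi cells in fits of the 4 arrays. Leaving out single arrays gave 0 to 983, 18 to 300 and 271 to 1918 genes, and 0 to 2, 0 to 1 and 0 to 6 of the 68. The count of 0 genes came without CD34+Flt3- replicate 2 (limma, 1569 at an unadjusted p under 0.05). Between CD34+Flt3hi and CD34-Flt3- cells the 68 genes gave 0 and 1 calls without CD34+Flt3hi replicates 1 and 2, 1 without either CD34+Flt3- array, and 6 and 4 without CD34-Flt3- replicates 1 and 2. Irak3 kept its call under 15 of 16 alternatives, Irak1bp1 under 8 of 15 and Nfkbie under 8 of 16. The cause of these changes was not tested. Probe sets near background limit Il18r1 and Il1rap.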
